A study of Dunaliella salina with 9 samples.

Results

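Short assembled transcript clusters that carry many reads were examined in the green alga Dunaliella salina grown under blue, red and white light. The files count reads on 115975 numbered clusters, and 129 of these form the set, selected on the deposited counts and FPKM. A member had an effective length under 300 bases and a mean of at least 20 CPM over the 9 libraries, where CPM is the deposited count scaled to the library total. The effective length was worked out from the deposited values as the CPM of a cluster over its FPKM, converted to bases, and its median was taken over those libraries where the count was 50 or more. No contrast between lights entered the choice, but a high level in a single light could carry a cluster over the mean. Of the 6933 clusters that reached 20 CPM, the members were 1.86%, and the other 6804 were longer and serve as the comparison. The series concerns carotenoid synthesis in this alga under light of different colours. Cells in mid-exponential growth were moved to fresh medium under blue light of 450 nm (3 libraries), red light of 660 nm (3 libraries) or cool white light (3 libraries), with a photon flux of 50 µmol per square metre and second in each. All cultures had been kept at 22 °C under white fluorescent lamps with 14 h light and 10 h dark. The design text calls the 9 samples biological. The sources used here do not give the strain, the time under each light, or whether the libraries of a light came from separate cultures or shared a date. P-values may therefore measure technical spread only, and a batch and the light cannot be told apart.

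Dunaliella salina is a salt-tolerant, wall-less alga known for the β-carotene it stores. Like other green algae it has light-harvesting pigment complexes in its chloroplast and photoreceptors for blue light. Light quality is known to change the expression of many nuclear genes in such algae. Short assembled sequences in a transcriptome can be messages of small proteins, non-coding RNAs, pieces of organelle or ribosomal RNA, or fragments of a longer transcript. In estimates of this kind the effective length is usually the number of positions at which a sequenced fragment could start, so that it is shorter than the sequence itself. FPKM divides by it. The files do not pair the cluster identifiers with genes, and none matched the 16683 genes of the RefSeq table for the assembly Dunsal1 v. 2. What each member encodes was therefore not used here, no sequence is shown, and only 4 members are given by identifier, with the others named by their rank in mean unscaled CPM.

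Library totals lay between 16279167 and 24526786 counts. All 129 members had at least 1 count in every library, and 122 had at least 50. The white libraries were the most unlike each other. The white libraries also had lower TMM scaling factors, at 1.09 to 1.16 in blue, 0.999 to 1.08 in red and 0.788 to 0.936 in white, and fewer values that were not whole, at 29.7% to 31.9% in blue, 31.0% to 33.9% in red and 21.6% to 26.6% in white. The part of these in the results was not tested, beyond the other scalings given below. Levels below are CPM scaled with edgeR's TMM factors unless stated otherwise. The median coefficient of variation over members was 10.8% in blue, 11.9% in red and 30.9% in white, beside 6.82%, 6.79% and 21.4% over the longer clusters. White 3 lay between white 1 and white 2 in 110 of the 129 members (85.3%), against 66.4% of all tested clusters without ties and 82.5% of the longer ones. White 1 was the lowest white library in 76 members and the highest in 44. The name well-expressed holds for the mean only: 79 members reached 20 CPM in the mean of each light, 30 in 2 lights, 17 in white alone and 3 in blue alone. The members of a single light passed through the light in which they were high, and the 30 through the 2 lights in which they were high. The counts of changed members below therefore cannot be read as a property of all short clusters. Effective lengths of members ran from 10.3 to 297 bases with a median of 193, and mean CPM from 20.04 to 5918 with a median of 37.6. The 3 members nearest the length limit had 292, 293 and 297 bases, and the 3 clusters just beyond it 301, 303 and 303. The 3 nearest the CPM limit had 20.04, 20.1 and 20.6 CPM, and the 3 just below it 19.6, 19.6 and 19.5.

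The members took a smaller part of the reads under blue and red light than under white light. Their share of library counts was 1.43%, 1.78% and 1.76% in blue 1 to 3, 2.04%, 2.18% and 2.30% in the red libraries, and 3.38%, 6.59% and 5.69% in white 1 to 3. Every white library lay above every red one, and every red one above every blue one. The means were 1.66% ± 0.19 in blue, 2.18% ± 0.13 in red and 5.22% ± 1.7 in white (SD, n = 3 each). The two-sided exact permutation test gave p = 0.1 for each pair of lights, the smallest value possible with 3 libraries per light (0.15 when Benjamini-Hochberg adjusted, with 12 tests in the family). Of the counts in all clusters of 20 CPM or more, the members held 1.92% ± 0.22 in blue, 2.498% ± 0.13 in red and 5.88% ± 1.9 in white (exact permutation p = 0.1 for each pair). The choice of members bore on these shares, as 17 reached 20 CPM in white alone, 3 in blue alone and 0 in red alone. The permutation tests are thus no independent support. Over the 79 members at 20 CPM in each light, the share of library counts differed by -2.89 percentage points for red minus white. It differed by -3.43 for blue minus white, beside -3.04 and -3.56 over all members. In bulk RNA of this kind, fewer cells that express a transcript and less of it per cell cannot be told apart.

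Most of that difference lay in 9 members with a mean of 1000 CPM or more. That mean includes the white libraries, so members high in white alone could pass it. The place of the difference was thus partly set by the choice of the 9. The 9 members held 0.963% ± 0.16 of the counts in blue, 1.42% ± 0.073 in red and 4.32% ± 1.6 in white. The other 120 members held 0.696% ± 0.049 in blue, 0.759% ± 0.056 in red and 0.900% ± 0.058 in white. Without the 9 members the difference in share was thus -0.14 percentage points for red minus white and -0.20 for blue minus white, in place of -3.04 and -3.56. The 3 members with the most reads alone held 0.309% ± 0.11 in blue, 0.176% ± 0.012 in red and 2.87% ± 1.4 in white.

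**Figure D1:**
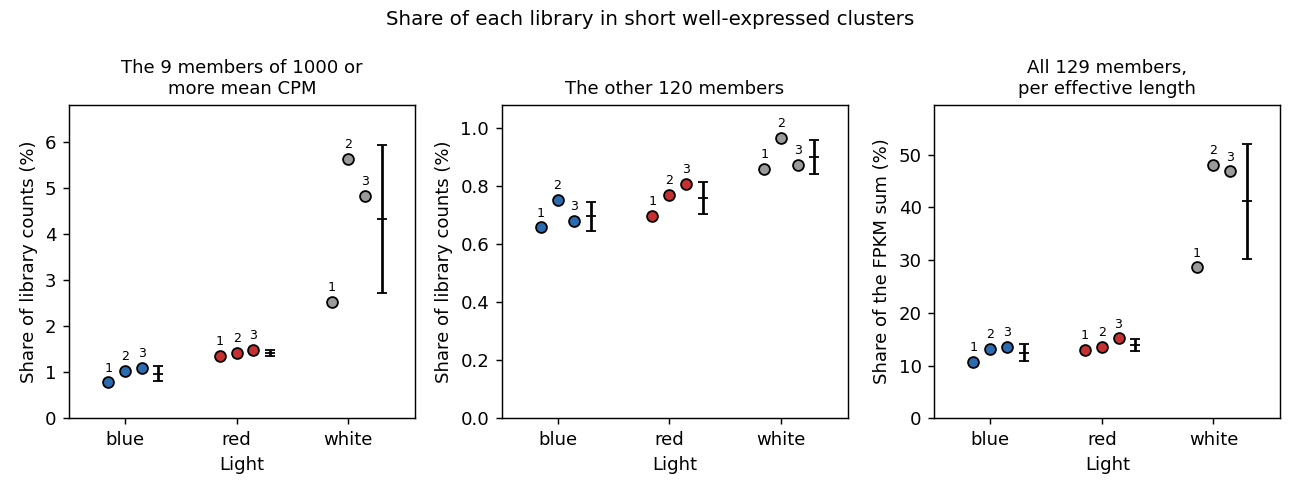
Share of each library taken by the short clusters, as percent of library counts for the 9 members of 1000 or more mean CPM and for the other 120, and as percent of the FPKM sum for all 129. Points are libraries with their replicate number and bars give mean ± SD (n = 3). The white libraries lie highest in each panel, with white 1 well below white 2 and white 3 for the 9 members.

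Per length the members weighed far more, which the rule that chose them sets in part. It took clusters with many reads and a low ratio of CPM to FPKM, and these stand high in FPKM. FPKM divides CPM by the effective length in kilobases, so a cluster of a few effective bases can reach a very high value from a moderate count. The members held 10.7%, 13.1% and 13.6% of the FPKM sum in blue 1 to 3, 13.0%, 13.6% and 15.1% in the red libraries, and 28.6%, 48.0% and 46.8% in white 1 to 3. All white libraries lay above all others, while blue and red overlapped. The means were 12.5% ± 1.5 in blue, 13.9% ± 1.1 in red and 41.1% ± 11 in white (two-sided exact permutation p = 0.1 for either light against white and 0.4 for blue against red, 0.15 and 0.44 adjusted). Of the 10 clusters with the highest FPKM in a library, 7 to 9 were members, whereas of the 10 with the most counts 0 were members in the blue and red libraries, 1 in white 1 and 3 in white 2 and in white 3. The share of the FPKM sum also includes the 17 members that reached 20 CPM in white alone. Over the 79 members at 20 CPM in each light, red minus white was -25.6 percentage points and blue minus white -27.3. Over all members they were -27.2 and -28.7. This share, too, rested on the 9 members with the most reads, which were picked on a mean that includes white. Without them the difference was 0.81 percentage points for red minus white, in the other direction, and -0.069 for blue minus white. The FPKM sum of the clusters outside the set stayed between 911629 and 1015180 over the 9 libraries, while that of all clusters ran from 1066570 to 1175070 in blue and red and from 1284430 to 1780410 in white.

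The highest mean FPKM over the 9 libraries belonged to the member ranked 7, with an effective length of 12.7 bases, although other members were higher in blue 1 and in the red libraries. It had 10516, 26334 and 29594 FPKM in blue 1 to 3, 10249.9, 11233 and 13461 in the red libraries, and 96251, 431040 and 391931 in white 1 to 3. This single member took 24.2% of the FPKM sum in white 2 and 22.9% in white 3, but 7.49% in white 1. In the other libraries it took between 0.882% and 2.75%. Its effective length was 12.7, 18.1 and 15.7 bases in blue 1 to 3, 9.75, 11.1 and 12.3 in the red libraries, and 13.0, 15.4 and 11.9 in white 1 to 3, so that its FPKM moved with the library as well as with its reads.

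The spread of the effective length between libraries grew as clusters became shorter. Among the 57 members of 200 bases or more, the largest length over the smallest was 1.09 in the median (1.08 to 1.11). It was 1.15 for the 46 members from 100 to 200 bases, 1.33 for the 12 from 50 to 100 and 1.65 for the 14 under 50 (1.17 to 1.93). For the shortest clusters, FPKM values of different libraries can thus differ up to 1.93-fold at equal CPM. The median effective length over members was 193, 206 and 201 bases in blue 1 to 3, 185, 190 and 194 in the red libraries, and 195, 203 and 193 in white 1 to 3. The lights overlapped, with two-sided exact permutation p = 0.2 for red against white, 0.7 for blue against white and 0.2 for blue against red (0.24, 0.70 and 0.24 adjusted).

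**Figure D2:**
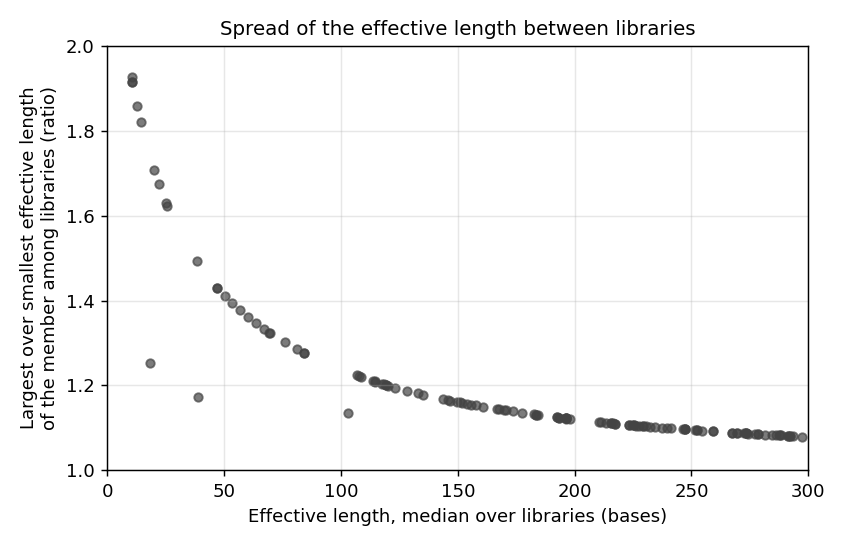
Largest over smallest effective length of each member among the libraries in which it had at least 50 counts, against its median effective length in bases (129 points). The ratio falls from 1.93 for the shortest member to about 1.08 for the longest. The 3 points below the curve had such counts in only 3, 3 and 6 libraries.

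Red light was set against white light to see which short clusters respond to a narrow red band at equal photon flux. In red, 61 of the 129 members fell and 23 rose, while 45 did not pass (edgeR's quasi-likelihood fit over 38376 clusters, Benjamini-Hochberg adjusted p under 0.05). Over all tested clusters 16.9% fell and 17.0% rose, 33.9% together. The share of members that fell was 47.3%, and that of members that rose was 17.8%. Among the 79 members at 20 CPM or more in each light, 37 fell (46.8%) and 9 rose (11.4%), and of the 20 that reached it in a single light, 16 fell and 3 rose. Of the 6802 longer clusters of like abundance that were tested, 32.7% fell and 16.8% rose. The median log2 fold change was -0.68 over members, -0.11 over the longer clusters and 0.31 over all tested clusters. At least 2-fold falls were called in 53 members (41.1%), against 11.9% of the longer clusters and 11.7% of all, and at least 8-fold falls in 17 (13.2%), against 2.93% and 4.29%. At least 2-fold rises were called in 12 members (9.30%), against 10.2% of the longer clusters and 15.3% of all. A single member rose 8-fold or more (0.775%), against 3.63% of the longer clusters and 8.77% of all. Red and white libraries did not overlap in 30 members that were higher in red (23.3%, against 28.0% of the longer clusters and 32.1% of all). They also did not overlap in 58 that were lower (45.0%, against 36.2% of the longer clusters and 22.2% of all). Among these were the 23 that rose and 56 of the 61 that fell. All shares and the median over the 129 members include the 20 that reached 20 CPM in a single light. They also include the 30 that reached it in 2 lights. They therefore cannot be read against the background, whereas the shares of the 79 members leave both groups out.

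The member with the most reads, Cluster-15686.47801 (effective length 273 bases), fell in red. It had 489.5, 444 and 519 CPM in red 1 to 3, against 7349, 27588 and 22484 CPM in white 1 to 3. Red and white did not overlap, but white 1 lay well below white 2 and white 3. The log2 fold change was -5.31 ± 0.60 (SE; edgeR adjusted p = 0.00066), or 39.6-fold lower in red. Its counts were whole in no library, as happens in estimated counts where reads match several clusters, and the part of such a division in the change was not tested.

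Larger folds were found in members with fewer reads. Those ranked 48 and 29 reached 20 CPM in white alone and so entered the set through white, which makes their differences from white a description with no test. The largest was that of the member ranked 48 (18.1 bases), which had 4, 1 and 3 counts in red 1 to 3, against 4797, 2423 and 1665 in white 1 to 3. The fitted log2 fold change was -10.54 ± 0.61. The member ranked 29 (38.8 bases) had 22, 18 and 11 counts in red, against 6946, 4036 and 2804 in white (fitted log2 fold change -8.56 ± 0.71). Both had few reads outside white light. The member ranked 3 (47.0 bases), which passed 20 CPM in each light, followed with 54.3, 57.8 and 65.4 CPM in red, against 4153, 11800 and 9698 CPM in white (log2 fold change -7.17 ± 0.66, edgeR adjusted p = 0.00024). In each of these 3 members all red libraries lay far below all white ones.

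Among the members that rose in red, Cluster-15686.48116 (229 bases) had the most reads. Its level was 3460.4, 3638 and 4004 CPM in red 1 to 3, against 2047, 1079 and 1475 CPM in white 1 to 3. All red libraries exceeded all white ones, and the log2 fold change was 1.27 ± 0.21 (edgeR adjusted p = 0.0034), a 2.41-fold increase. Its counts were whole in all 9 libraries. In blue it had 1720.1, 1780.5 and 1879 CPM, which overlapped with white (log2 fold change 0.23 ± 0.21, edgeR adjusted p = 0.43). The largest rise was that of the member ranked 13 (135 bases), with 610.1, 727 and 888 CPM in red, against 119, 72.6 and 78.0 CPM in white. This was an 8.24-fold difference (log2 fold change 3.04 ± 0.28, edgeR adjusted p = 0.00023) with no overlap. Of the members not called, 9 had red and white libraries that did not overlap.

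The count of members that rose in red depended on single libraries, with 12 without white 3, 13 without red 2 and 15 without red 3, and the count that fell was 39 without red 1. On the deposited FPKM scale, tested with limma, 38 rose and 49 fell. With library totals as the only scaling, which moves the median change over the tested clusters (log2) from 0.31 to 0.60 in red and from 0.28 to 0.67 in blue, 31 rose and 52 fell.

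**Figure D3:**
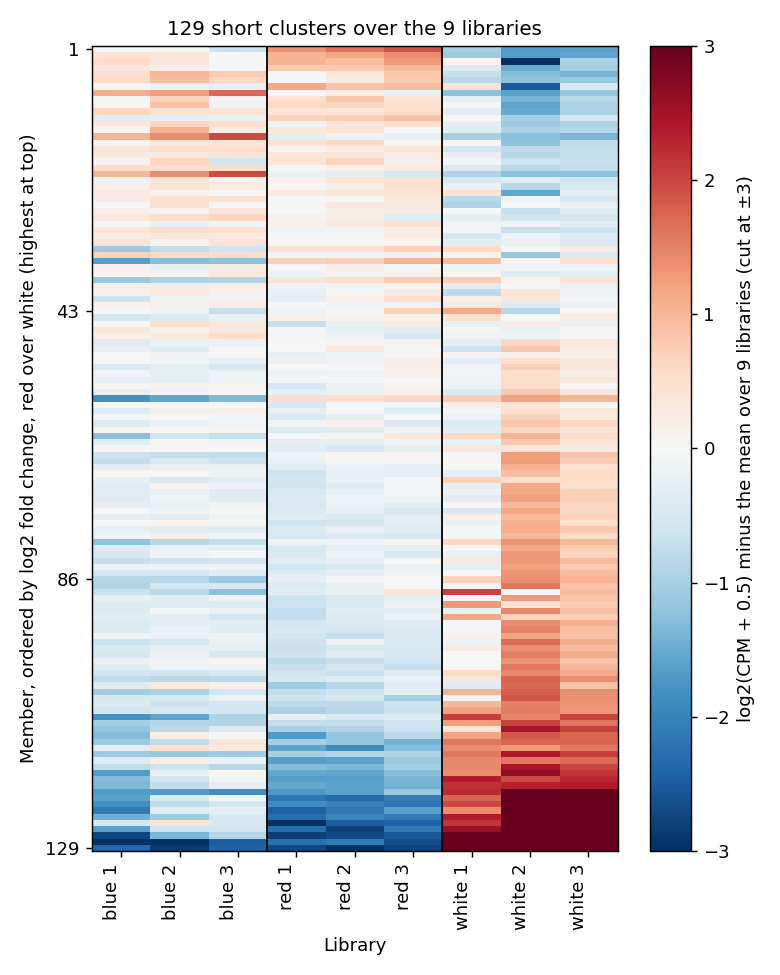
Level of the 129 members (rows, ordered by log2 fold change of red over white) in the 9 libraries (columns), as log2(CPM + 0.5) minus the member's mean over the libraries, with colours limited at ±3. White 1 is paler than white 2 over most of the lower rows, and red and blue columns differ in fewer rows than either does from white.

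The comparison of blue with white light shares its 3 white libraries with the comparison above. In blue, 61 members fell and 25 rose, and 43 did not pass (edgeR, adjusted p under 0.05). Over all tested clusters 14.7% fell and 14.1% rose, 28.8% together. For the members the shares were 47.3% and 19.4%, and for the longer clusters 32.4% and 14.8%. Among the 79 members at 20 CPM or more in each light, 36 fell (45.6%) and 11 rose (13.9%), and of the 20 that reached it in a single light, 16 fell and 3 rose. The median log2 fold change was -0.76 over members, -0.11 over the longer clusters and 0.28 over all. At least 2-fold falls were called in 51 members (39.5%), against 14.1% of the longer clusters and 10.2% of all, and 8-fold falls in 13 (10.1%), against 2.26% and 3.66%. At least 2-fold rises were called in 15 members (11.6%), against 8.37% of the longer clusters and 12.5% of all. The largest ratio above white was 6.93-fold, whereas 7.60% of all tested clusters were called with a rise of 8-fold or more. Blue and white libraries did not overlap in 29 members that were higher in blue (22.5%, against 26.1% of the longer clusters and 28.5% of all). They also did not overlap in 66 that were lower (51.2%, against 38.0% of the longer clusters and 21.2% of all). Among these were all 86 called. Here, too, all shares and the median over all members include the 20 that reached 20 CPM in a single light. They also include the 30 that reached it in 2 lights. They therefore cannot be read against the background, whereas the shares of the 79 members leave both groups out.

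Cluster-15686.48022 (225 bases), the member ranked 2, had 883, 1150.2 and 1497 CPM in blue 1 to 3, against 2596, 11276 and 8425 CPM in white 1 to 3. All blue libraries lay below all white ones, with white 1 nearest to them. The log2 fold change was -2.66 ± 0.49 (edgeR adjusted p = 0.0059), a 6.32-fold decrease. Its level in red, 1037, 1098 and 1325 CPM, was also below white (log2 fold change -2.69 ± 0.49, edgeR adjusted p = 0.0054). Its counts were whole in no library. Cluster-15686.47801 had 725, 1616 and 2038 CPM in blue, 13.1-fold below white by the fitted change (log2 fold change -3.71 ± 0.56, edgeR adjusted p = 0.0024). The largest difference below white was that of the member ranked 29, given as a description for the reason above, with 1, 3 and 13 counts in blue 1 to 3, against the white counts given above (fitted log2 fold change -10.03 ± 0.77).

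Among the members that rose in blue, Cluster-15686.45879 (169.6 bases) was the one with the most reads. It had 526, 517 and 388 CPM in blue 1 to 3, against 192, 127 and 136 CPM in white 1 to 3. No blue library overlapped a white one, and the level was 3.14-fold higher (log2 fold change 1.65 ± 0.20, edgeR adjusted p = 0.00094). In red its level was 825, 922 and 1091 CPM, above both other lights in every library (red against white, log2 fold change 2.64 ± 0.21, edgeR adjusted p = 0.00013). Blue against red did not pass for this cluster (log2 fold change -0.99 ± 0.20, edgeR adjusted p = 0.059). Its counts, too, were whole in no library. The largest difference above white was that of the member ranked 120 (232 bases), which reached 20 CPM in blue alone and is described with no test, with 33.5, 37.4 and 51.2 CPM in blue, against 6.34, 4.70 and 6.57 CPM in white. The fitted ratio was 6.93-fold, and the libraries did not overlap (log2 fold change 2.79 ± 0.23). The counts of changed members in blue stayed within 1.5 times of those given when any 1 library was left out. With library totals as the only scaling 33 rose and 47 fell and on the FPKM scale 36 rose and 50 fell.

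The 9 members with the most reads did not move alike. In blue 7 of them fell against white, and those ranked 5 and 8 did not pass. In red 6 fell, that ranked 5 rose, and those ranked 6 and 8 did not pass. The member ranked 8 (241 bases) was called in none of the comparisons. It had 1449.9, 1452 and 1438 CPM in blue, 1043, 1082 and 1298 in red, and 1097, 2172 and 1824 in white, and its counts were whole in all libraries. Its white libraries overlapped with both other lights, while every blue library lay above every red one. The member ranked 7 had 119, 414 and 430 CPM in blue, 94.7, 117 and 166 in red, and 1345, 8476 and 5677 in white. It fell in blue (log2 fold change -4.01 ± 0.76, edgeR adjusted p = 0.0066) and in red (log2 fold change -5.36 ± 0.81, edgeR adjusted p = 0.0024). The member ranked 9 (278 bases) had 451, 587 and 642 CPM in blue, 984, 989.6 and 1096 in red, and 1620.3, 2683 and 2123 in white, lowest in blue and highest in white with no overlap between any lights. It was lower in blue (log2 fold change -1.93 ± 0.20, edgeR adjusted p = 0.00046) and in red than in white (log2 fold change -1.07 ± 0.20, edgeR adjusted p = 0.0059). Between blue and red it did not pass (log2 fold change -0.87 ± 0.20, edgeR adjusted p = 0.092).

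**Figure D4:**
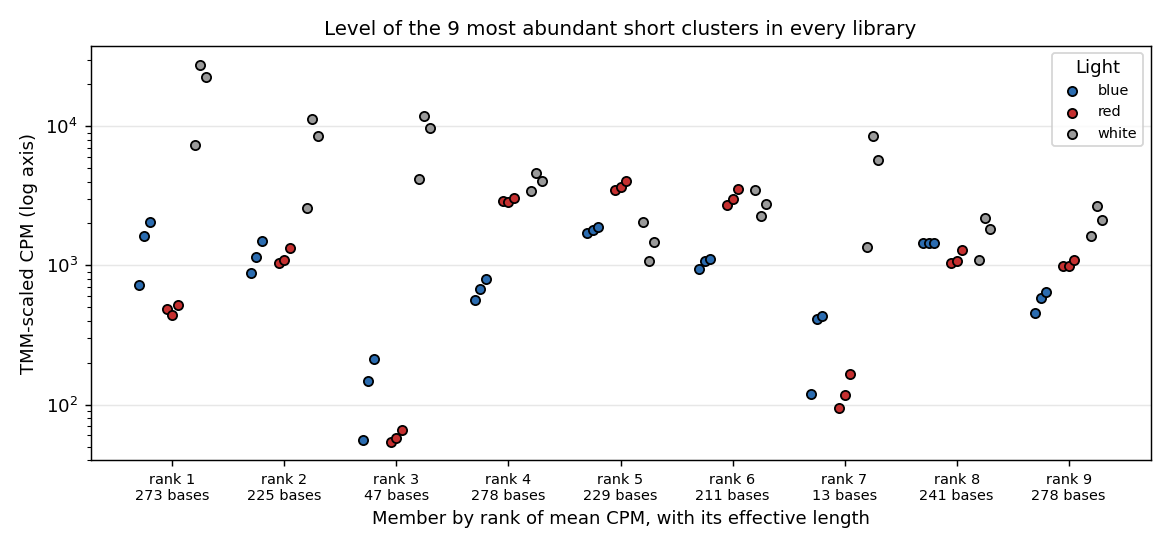
TMM-scaled CPM, on a log axis, of the 9 members with the highest mean CPM in each library, with their effective lengths. Points are libraries in the order of replicate number. Members ranked 1, 2, 3 and 7 lie highest in white with white 1 below white 2 and white 3, that ranked 5 lies highest in red, and those ranked 4 and 6 lie lowest in blue.

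Setting blue light against red light compares the narrow bands directly. In blue, 6 members were higher (4.65%) and 5 lower (3.88%) than in red, together 8.53% of the members (edgeR, adjusted p under 0.05). None of the 6 reached 20 CPM in each light: 4 reached it in a single light, and those ranked 39 and 41 lay below it in red. Their 4.65% therefore cannot be read against the background, and among the 79 members at 20 CPM or more in each light 0 were higher and 4 lower (5.06%). Over all tested clusters 1.69% were called, with 0.667% higher and 1.02% lower, and among the longer clusters of like abundance 6.98%, with 2.32% higher and 4.66% lower. All 11 members differed at least 2-fold, as did 0.383% (higher) and 0.547% (lower) of all tested clusters. The largest difference was 7.20-fold, and 8-fold differences were called in 0.0834% (higher) and 0.0678% (lower) of all. Blue and red did not overlap in any of the 11. Of these, 1 higher and 2 lower members had whole counts in all 9 libraries. The median log2 difference over all members was 0.09, beside -0.02 over the longer clusters and -0.03 over all tested clusters. Another 52 members had blue and red libraries that did not overlap but were not called, 30 of them higher and 22 lower in blue. Over all tested clusters, 15.7% were higher and 17.0% lower in blue without overlap, against 27.9% and 20.9% of the members. Among the longer clusters of like abundance the shares were 26.4% and 31.0%. The shares over all members include the 20 that reached 20 CPM in a single light and the 30 that reached it in 2. Those shares therefore cannot be read against the background.

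The 5 members lower in blue included 4 with many reads, those ranked 4, 6, 12 and 13, which are the 4 that reached 20 CPM in each light. The member ranked 4 (278 bases) had 568, 680.1 and 799.5 CPM in blue 1 to 3, against 2892, 2849.8 and 3043 CPM in red 1 to 3. It was 4.29-fold lower in blue (log2 fold change -2.10 ± 0.16, edgeR adjusted p = 0.0016), and its white level was 3404, 4631 and 4050.4 CPM. The member ranked 12 (128 bases) had 128, 166 and 173 CPM in blue, against 658, 681 and 829.8 CPM in red. The decrease was 4.65-fold (log2 fold change -2.22 ± 0.23, edgeR adjusted p = 0.0049), and its white level of 784, 448 and 594 CPM overlapped with red. The member ranked 6 (211 bases) had 936, 1077 and 1114 CPM in blue, against 2693, 2982 and 3509.6 CPM in red (log2 fold change -1.55 ± 0.18, edgeR adjusted p = 0.0076), and its white level of 3487, 2257 and 2768 CPM overlapped with red as well. For these 3 members every blue library lay below every red and every white one. The other members lower in blue were those ranked 13 and 100. The member ranked 13 had a log2 fold change of -1.82 ± 0.26 (edgeR adjusted p = 0.019) and lay above white in every blue library. That ranked 100 lay below 20 CPM in blue and entered the set through lights in which it was high. It is therefore described with no test (log2 fold change -1.39 ± 0.21), and it lay below white in every blue library.

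The 6 members higher in blue had fewer reads and are described with no test, since each entered the set through lights in which it was high. Those ranked 84, 89 and 120 reached 20 CPM in blue alone, and were highest in blue and lowest in white. The member ranked 84 (60.0 bases) had 42.7, 55.4 and 81.9 CPM in blue, 17.8, 17.2 and 14.1 in red, and 10.6, 8.43 and 8.59 in white (blue against red, log2 fold change 1.88 ± 0.25). The member ranked 89 (117 bases) had 40.1, 51.8 and 76.7 CPM in blue, 15.3, 17.3 and 16.3 in red, and 9.57, 7.86 and 7.24 in white (blue against red, log2 fold change 1.79 ± 0.24). In both, and in the member ranked 120 (log2 fold change 1.40 ± 0.22), all 3 lights were separate, with blue 3 the highest library. Those ranked 39, 41 and 75 were highest in white and lowest in red, and that ranked 75 reached 20 CPM in white alone. The member ranked 41 (50.2 bases) had 39.3, 69.6 and 59.6 CPM in blue, 16.1, 12.9 and 19.6 in red, and 129.8, 119 and 147 in white (blue against red, log2 fold change 1.79 ± 0.24). The member ranked 75 (103 bases) had the largest difference, with 9.48, 17.7 and 9.35 CPM in blue, against 1.04, 1.97 and 2.09 CPM in red and 60.1, 143 and 117 in white (blue against red, 7.20-fold, log2 fold change 2.85 ± 0.45). The member ranked 39 differed by 1.37 ± 0.21 on the log2 scale.

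The comparison of blue with red depended on single libraries. All 11 calls were kept without white 1 or white 2, but 2 to 7 were kept without any 1 of the others. With 1 library left out, the numbers of members higher and lower in blue were 0 and 2 (blue 2), 2 and 3 (blue 3), 4 and 3 (blue 1), 0 and 3 (red 1), 0 and 3 (red 2), 1 and 2 (red 3), 3 and 3 (white 3), 6 and 10 (white 1) or 7 and 10 (white 2), beside 42 members at an unadjusted p under 0.05 with all libraries. With the replicate number as a block, 1 higher and 3 lower were called, and at an adjusted p under 0.01, 0 and 3. A fit of the blue and red libraries alone called 25 higher and 18 lower, DESeq2 11 and 13, and edgeR with each library's effective length in the model 6 and 8.

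**Figure D5:**
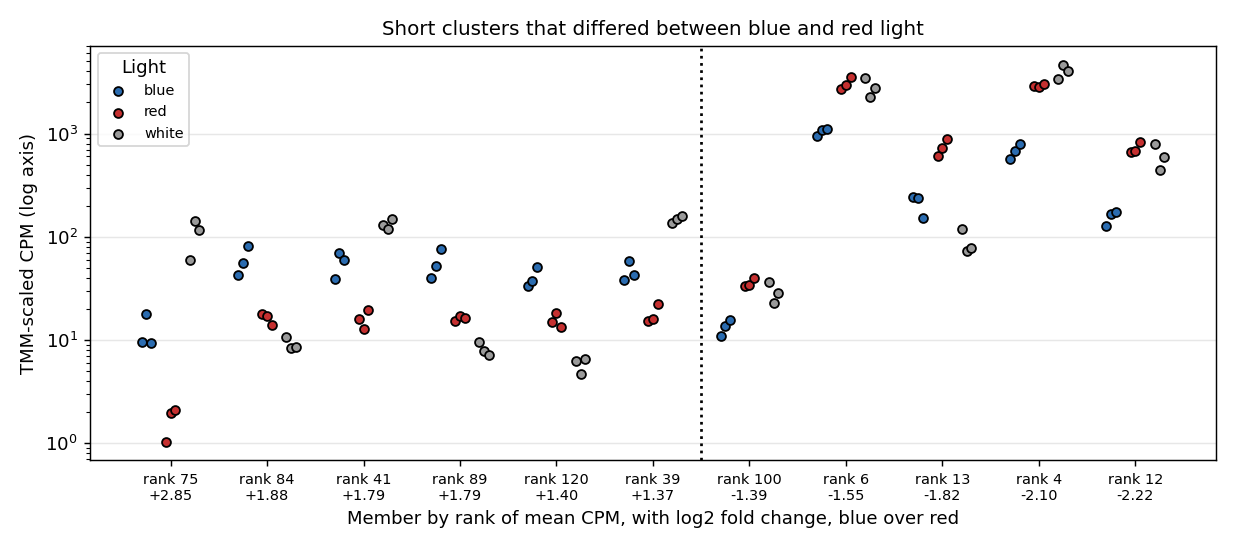
TMM-scaled CPM, on a log axis, of the 11 members that differed between blue and red, in each library, with rank of mean CPM and log2 fold change of blue over red under each. The 6 members left of the dotted line were higher in blue, at 9.35 to 81.9 CPM in the blue libraries, and the 5 to its right were lower.

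By effective length, every class held calls against white, while none of the 11 calls between blue and red was in the class under 50 bases. Of the 14 members under 50 bases, 7 fell and 2 rose in red, and 8 fell and 3 rose in blue. Of the 12 from 50 to 100 bases, 7 fell and 2 rose in red, and 6 fell and 2 rose in blue. Of the 46 from 100 to 200 bases, 14 fell and 12 rose in red, and 18 fell and 13 rose in blue. Of the 57 of 200 bases or more, 33 fell and 7 rose in red, and 29 fell and 7 rose in blue. The class from 100 to 200 bases thus had the most even split, with a median log2 fold change of -0.15 in red and -0.47 in blue, against -0.94 and -0.90 for the longest class. Over all tested clusters, 16.9% fell and 17.0% rose in red, and 14.7% fell and 14.1% rose in blue. The counts by class include members that reached 20 CPM in only 1 or 2 lights, so no pattern by length is read from them. Whether the classes differ from each other was not tested. The shortest member, that ranked 23 (10.3 bases), had 119, 175 and 149 CPM in blue 1 to 3, 73.4, 101 and 138 in the red libraries, and 102, 137 and 103 in white 1 to 3. It was called in no comparison, with edgeR adjusted p = 0.71 for red against white, 0.28 for blue against white and 0.52 for blue against red. The longest, that ranked 34 (297 bases), had 55.5, 62.0 and 51.0 CPM in blue, 76.2, 74.8 and 85.9 in red, and 69.3, 123.1 and 93.4 in white. It was lower in blue than in white (log2 fold change -0.76 ± 0.20, edgeR adjusted p = 0.024), while red overlapped with white (log2 fold change -0.27 ± 0.20, edgeR adjusted p = 0.31).

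Many members had counts that were not whole. In 67 members (51.9%) the count was not whole in any library, against 40.8% of the longer clusters, and in 40 members (31.0%) it was whole in all 9, against 34.4%. Of the 40 members with whole counts only, 18 fell (45.0%) and 3 rose (7.50%) in red. The shares were 32.7% and 16.8% of the longer clusters, and 16.9% and 17.0% of all tested clusters. In blue, 20 fell (50.0%) and 3 rose (7.50%), against 32.4% and 14.8% of the longer clusters and 14.7% and 14.1% of all. The 40 were not limited to members at 20 CPM in each light. That ranked 31, for one, had means of 13.9 CPM in blue, 6.45 in red and 265 in white. The shares of the 40 therefore cannot be read against the background. All members, like all 6933 clusters of 20 CPM or more, carry identifiers of the same numbered family, to which 82.9% of all clusters belong.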

How the data were processed

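Libraries of 9 samples were made from 1.5 µg RNA each with the NEBNext Ultra kit, per the labels' protocols. The submitters' processing notes name DESeq 1.10.1. The aligner, counting tool and assembly are not given in the sources used here. The authors deposited, per library, 1 table with an estimated count and an FPKM value per cluster. The deposited estimated counts are not scaled and include values that are not whole. The deposited FPKM values are scaled to library total and effective length, judged from the values.

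Estimated counts were rounded, filtered with edgeR's filterByExpr (minimum 10 per library, 15 in total), TMM-scaled and fitted over 38376 clusters with edgeR 4.0.16 under R 4.3.3. The quasi-likelihood fit was robust, used all 9 libraries and had light as its only term. P-values were adjusted by Benjamini-Hochberg across the tested clusters, with 0.05 as threshold. Standard errors were derived from the F statistic. Alternatives used DESeq2 1.42.0 and limma 3.58.1 (voom, and log2(FPKM + 1)). The share of the FPKM sum, and values without the members above 1000 CPM or with lengths from all 9 libraries, were added after seeing the data. The edgeR fit was also run, for red against white only, on counts simulated from the levels and spreads of the main fit, with the outcome not given here. Summaries used Python 3.11.15.

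Of the 115975 clusters, 26879 had an effective length. Members, lists and tests were chosen with earlier results of these data known. Identifiers are given for the members with the most reads that rose and fell in red and in blue without overlap with white. No 2 libraries of a light were alike within sampling noise (chi-square per cluster of 8.14 or more). A count of 3 corresponds to 0.122 (red 1) to 0.184 CPM (white 3). This floor includes only counting error.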

Additional observations from a re-analysis of the deposited data

How the results depend on the processing

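Counts of members called higher and lower were 23 and 61 (red to white), 25 and 61 (blue to white) and 6 and 5 (blue to red). Those that moved by over 1.5 times follow, with those left out staying within. An adjusted p under 0.01 gave 12 and 39 in red, 14 and 40 in blue, and 0 and 3 between blue and red. A 2-fold minimum gave 12 higher in red and 15 in blue. No filter gave 15 higher in red, and the FPKM scale 38 higher in red and 9 lower in blue than in red. Between blue and red, 11 and 13 were called by DESeq2, 25 and 18 in a fit of those groups, 12 lower at a mean of 10 CPM or more in the fit, 8 lower with limma-voom and 8 lower with the effective length in the model. Other limits for membership moved the counts with the size of the set: under 200 bases (72 members) 28 lower in red, 32 in blue and 3 in blue against red; under 400 bases (204) 35 higher in red and 38 in blue; 10 CPM (268) 49 and 112 in red, 56 and 104 in blue; 50 CPM (50) 9 and 26 in red, 9 and 30 in blue, 2 higher in blue against red; 20 CPM in each light (79) 9 and 37 in red, 11 and 36 in blue, 0 higher in blue against red; whole counts (40) 3 and 18 in red, 3 and 20 in blue, 1 and 2 in blue against red. With 1 library left out the ranges were 12 to 29 and 39 to 77 in red, 17 to 31 and 43 to 81 in blue, and 0 to 7 and 2 to 10 in blue against red. With the replicate block, 15 were higher in red, and 1 higher and 3 lower in blue than in red; the correlations of same-numbered libraries were all positive but weak (0.0053 to 0.066, against -0.066 to 0.040 for other numbers), and the best match had the same number in 14 of 18 cases, a hint from the data. As all lay under 0.1 and the labels give no pairing, the numbers were not taken as pairs. Differences in the shares of counts and in effective length kept their direction. The difference in FPKM share was 0.81 points for red minus white without the members above 1000 CPM, and 0.11 for blue minus red under 200 bases. Cluster-15686.48022 did not pass between blue and red, and its log2 fold change of 0.03 was -0.044 with the effective length in the model, -0.018 with the replicate block and -0.18 to 0.21 with 1 library left out. Against white, all calls of the 4 named clusters held in all 19 alternatives fitted, and the absence of a call for Cluster-15686.48116 in blue ended without white 1 (adjusted p 0.029 by edgeR). Cluster-15686.48116, Cluster-15686.45879 and Cluster-15686.47801 were not called between blue and red either (edgeR adjusted p = 0.058, 0.059 and 0.24). That held in 12, 11 and 18 of the 19 alternatives, and in the rest they were called. For each shift the cause was not tested. Depth limits the rarest values: the members ranked 29 and 48 rest on 17 and 15 pooled counts in blue, and 51 and 8 in red.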

Other observations

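Among the members, 5 pairs carry consecutive identifier numbers. The sources used here do not say what this numbering follows. Members that reached 20 CPM in a single light (those ranked 89, 115, 118 and 120) are described with no test. The pair ranked 89 and 120 had log2 fold changes of 2.77 and 2.79 in blue against white, and of 0.99 and 1.40 in red against white. The pair ranked 33 and 70 fell in both comparisons with white, by log2 fold changes of -0.99 and -1.26 in blue and -1.05 and -1.47 in red. The pair ranked 9 and 118 has effective lengths of 278 and 10.6 bases, and had log2 fold changes of -1.93 and -1.88 in blue and -1.07 and -2.87 in red. The pair ranked 85 and 115 had -0.56 and -1.43 in blue and -0.89 and -1.53 in red, and neither of the pair ranked 37 and 90 was called against white. Whether reads were divided between the clusters of a pair was not tested.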
